A study of Mus musculus with 15 samples.

Results

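The cytosolic ribosome is built from ribosomal RNA and a fixed set of ribosomal proteins, and the genes of those proteins are followed here across mouse mammary tumors and normal mammary glands. The genes were chosen by symbol: every gene named Rpl or Rps followed by a number and at most the letter a or x, together with Rplp0, Rplp1, Rplp2 and Rpsa, with pseudogenes left out. This gave 76 of the 51826 genes in the tables, 46 of the large (60S) and 30 of the small (40S) subunit. They lie on 19 chromosomes, with 14 of them on chromosome 7, and the gene identifiers of 76 of 76 were found in the GRCm38 annotation.

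RNA-seq was made from 15 libraries of 13 mice. Trim24COE tumors arose in virgin females that carry a single-copy, floxed-stop, Flag-tagged mouse Trim24 transgene on chromosome 1, turned on in mammary epithelium by MMTV-Cre. Of these, 3 were classed as carcinosarcoma (64, 567 and 897) and 3 as carcinoma (89, 273_5 and 3956), and the pathologists did not give the same class to mice 89, 567 and 3956. Control mammary glands came from 4 age-matched mice with MMTV-Cre and no transgene (133, 392, 417_3 and 517_3), and 3 non-TRIM24 carcinomas (219, FVB001 and FVB002) arose spontaneously in mice whose genotype is labelled unknown. Ages in numbers are not in the labels, though the study's list of tumors gives an age for each of the Trim24COE mice. The strain is labelled FVB throughout, while the series' design text calls the controls FVB/129 mice. For the non-TRIM24 tumors the study's text names both backgrounds without saying which mouse had which. Sequencing batch 1 held the glands and Trim24COE tumors, and batch 2 held the non-TRIM24 tumors plus a repeat library each of gland 133 and tumor 3956. Groups rest on the first library of each mouse unless a repeat is named.

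The values are TPM, a gene's share of all transcripts, corrected for transcript length, so that levels can be compared between genes of a library. TPM sum to 1000000 in each library, so a library's depth is unknown. Trim24 was at 14.5 to 22.4 TPM in the glands, 10.6 to 24.1 TPM in the Trim24COE tumors and 5.34 to 10.04 TPM in the tumors without TRIM24 overexpression, with a log2 fold change of -0.24 between Trim24COE tumors and glands (limma adjusted p = 0.557). Whether the transgene's sequence was part of the reference for these values is not given in the sources used here, so this TPM is no check of the transgene. The tissues differed in cell content. Summed adipocyte markers (8 genes) ran from 1716 to 27238 TPM in the glands, with 133 and 392 the high pair, from 92.0 to 1035 TPM in the Trim24COE tumors and from 139 to 38660 TPM in the non-TRIM24 tumors, with 219 the low tumor. Summed epithelial markers (6 genes) ran from 679 to 4757, 332 to 5786 and 357 to 4846 TPM in the same groups, macrophage markers (6 genes) from 526 to 1302, 2095 to 6862 and 1433 to 1708 TPM, and proliferation markers (5 genes) from 20.2 to 105, 207 to 440 and 34.8 to 233 TPM. In the 6 Trim24COE tumors against 4 glands, 3 of 8 adipocyte markers, 3 of 4 endothelial and 4 of 8 lymphocyte markers were lower, and 6 of 6 macrophage, 4 of 5 proliferation and 2 of 5 fibroblast markers were higher, while 0 of 6 epithelial and 0 of 4 skeletal muscle markers passed. The epithelial markers differed by tumor class. In carcinosarcomas against glands 3 of 6 were lower (median log2 fold change -3.58), where 23.0% of all genes passed. In carcinomas against glands 0 of 6 passed (median 0.50), where 3.5% of all genes did. Their sum ran from 332 to 1393 TPM in carcinosarcomas and from 2194 to 5786 TPM in carcinomas. Fits with the adipocyte markers as a covariate and fits without the adipocyte-rich glands 133 and 392 are given below. The part of the other cell content in the results was not tested. In whole tissue fewer cells of a type and less RNA per cell cannot be told apart.

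Ribosomal protein mRNAs are among the most abundant of any growing cell, and each of the proteins enters the ribosome once, apart from the stalk proteins Rplp1 and Rplp2. Nearly all of these mRNAs begin with a C followed by a run of pyrimidines, the 5′ terminal oligopyrimidine (5′ TOP) motif, through which mTOR and Larp1 set their translation. Mammalian genomes also hold many processed pseudogenes of ribosomal protein genes, intronless copies of their mRNAs that can be nearly identical in sequence, so that a short read may fit the gene and a copy equally well.

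The 5′ TOP run was looked for in RefSeq promoter windows (GRCm38.p6), which were given for 56 of the 76 genes. A run of at least 8 C or T that begins with C, on the gene's strand, from 30 bases before to 50 bases after the RefSeq start, was found in 45 of those 56 windows (80.4%) and in 26.0% of the 27025 windows of all genes, with a median longest run of 10 and 6 bases. Shown next are 30-base windows, 5′ to 3′ on the gene's strand, with the longest such run in capitals, for a gene of very high level (Rpl13a, chr7:45128722-45128751, minus strand), for the genes highest in Trim24COE tumors against glands (Rplp0, chr5:115559468-115559497, and Rpsa, chr9:120127775-120127804, both plus strand), and for genes whose level is divided with copies (Rpl35a, chr16:33056469-33056498, plus strand, Rps18, chr17:33955647-33955676, minus strand, and Rps2, chr17:24720083-24720112, plus strand).
Rpl13a: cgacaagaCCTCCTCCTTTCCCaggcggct
Rpl35a: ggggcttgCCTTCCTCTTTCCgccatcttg
Rps18: tcacttccgCTCTCTCTTCCacaggaggcc
Rps2: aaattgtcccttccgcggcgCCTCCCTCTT
Rpsa: ccggccgcccgtCCTTTCgcgctacccggg
Rplp0: gaccgcctggttCTCCTataaaaggcacac
The run was 14 bases in Rpl13a, 13 in Rpl35a, 11 in Rps18, 10 in Rps2, 6 in Rpsa and 5 in Rplp0. The minimum of 8 was set here and does not define the motif. The runs below it in Rpsa and Rplp0 thus do not show that these genes lack the motif. The Rps2 run begins 40 bases after the RefSeq start and ends where the search ends, so its length may be cut. A run is a description of these letters and not of a used start site.

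The near-identical copies matter for every level that follows, and 3 gene and copy pairs show how little separates them. Each line is a 60-base stretch of the coding sequence, with the bases that differ between gene and copy in capitals. The Rplp0 stretch covers coding bases 388 to 447, the Rps18 stretch 312 to 371 and the Rpl35a stretch 97 to 156, and all are read from the GRCm38 transcripts.
Rplp0: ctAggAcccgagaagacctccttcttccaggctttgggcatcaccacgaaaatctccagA
Gm8730: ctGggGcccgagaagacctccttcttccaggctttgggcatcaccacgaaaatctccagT
Rps18: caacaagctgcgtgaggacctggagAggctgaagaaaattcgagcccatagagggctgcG
Gm10260: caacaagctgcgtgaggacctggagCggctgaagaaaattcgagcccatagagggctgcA
Rpl35a: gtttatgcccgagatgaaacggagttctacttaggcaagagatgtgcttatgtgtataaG
Rpl35a-ps2: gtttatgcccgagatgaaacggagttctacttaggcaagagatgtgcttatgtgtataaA
Rplp0 (chr5:115559467-115563727, plus strand) and the processed pseudogene Gm8730 (chr8:102864845-102865798, minus strand) were 98.7% identical, with 12 differences over 954 aligned bases. Rps18 (chr17:33951999-33956001, minus strand) and Gm10260 (chr13:97760072-97760632, minus strand, a single-exon gene annotated as coding) were 99.1% identical. Rpl35a (chr16:33056453-33060189, plus strand) and the processed pseudogene Rpl35a-ps2 (chr1:181241988-181242320, minus strand) differed at 1 of 333 bases, and Rpl3 (chr15:80077791-80091868, minus strand) and Rpl3-ps1 (chrX:13202571-13203780, plus strand) at 2 of 1210. Rpl5 (chr5:107900502-107909005, plus strand) and Gm15500 (chr7:114705217-114706235, minus strand) did not differ over 1018 aligned bases. Counting as a copy any gene with at least 50% of its 31-base words in a transcript of one of the 76 genes, 69 of the 76 had at least 1 copy, and the copies numbered 286, of which 274 were annotated as pseudogenes.

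The 76 genes together held between 11.6% and 20.4% of all TPM in a mouse, and the groups overlapped. In the control glands they held 11.6% (133), 17.4% (392), 16.9% (417_3) and 20.4% (517_3), a mean of 16.6% ± 3.65 (SD, n = 4). In the carcinosarcomas they held 14.1% (567), 18.4% (64) and 19.3% (897), a mean of 17.3% ± 2.76 (SD, n = 3). The carcinomas were closest together, at 15.6% (273_5), 14.8% (3956) and 16.1% (89), a mean of 15.5% ± 0.685 (SD, n = 3). The lowest and the highest mouse were thus both control glands. The non-TRIM24 tumors held 18.3% (219), 13.2% (FVB001) and 15.1% (FVB002), a mean of 15.5% ± 2.58 (SD, n = 3). Repeat libraries gave 14.2% for gland 133 and 17.4% for tumor 3956, differences from the same mouse's other library of a size like those between mice. Gland 133 also had the highest share of mitochondrially encoded RNA (19.8%, and at most 9.58% in the other 12 mice), and with that RNA left out of the total its share was 14.5%. With the copies added, the range over mice was 14.1% to 24.3%.

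**Figure D1:**
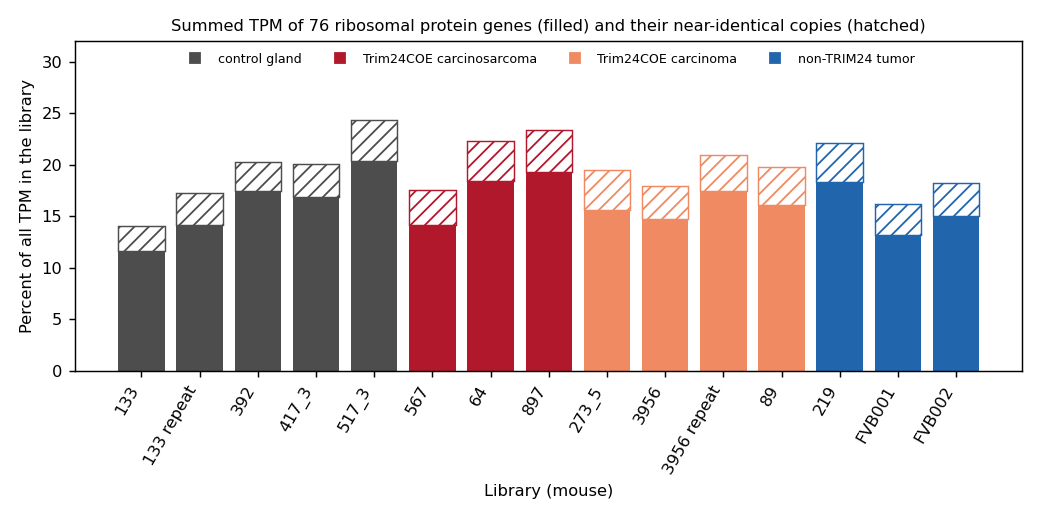
Summed TPM of the 76 ribosomal protein genes (filled bars) and of their near-identical copies (hatched, stacked on top) as a percent of all TPM (y axis) in each of the 15 libraries (x axis, by mouse, colored by group). The filled bars run from 11.6% to 20.4%, control glands hold both ends of that range, and the groups overlap.

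Levels differed far more between genes than between groups. Over 13 mice the mean level of a gene ran from 187 to 6617 TPM with a median of 1890 TPM, and 38 to 53 of the 76 genes were among the 100 most abundant genes of a library. The highest were Rplp1, an acidic protein of the 60S stalk (6617 TPM ± 1480, SD, n = 13), Rpl13a, a 60S protein with a known role in interferon-gamma-induced translational silencing (5722 TPM ± 1098), and Rpl41, a very short 60S peptide (4851 TPM ± 1374). The lowest were Rpl29 (187 TPM ± 71.3), Rpl5, which carries 5S rRNA into the ribosome and with Rpl11 binds Mdm2 (211 TPM ± 67.4), and Rpl27 (310 TPM ± 74.0). These low levels went with a high level at copies, which held 85.9% of the summed TPM of gene and copies for Rpl29, 88.3% for Rpl5 and 84.7% for Rpl27. For 11 of the 76 genes the copies held at least 50% of that sum and for 30 at least 10%, so the order of levels among the 76 genes is uncertain wherever a copy takes part.

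Most genes kept an even level over mice. The coefficient of variation (CV, SD over mean) over 13 mice had a median of 22.6%, and it was under 30% for 65 of the 76 genes. Rps29, a small zinc-finger protein of the 40S subunit, was the most even, with a CV of 13.6% and 3150 TPM ± 665 in glands (SD, n = 4), 3015 TPM ± 310 in Trim24COE tumors (SD, n = 6) and 3367 TPM ± 268 in non-TRIM24 tumors (SD, n = 3). At the other end stood Rps2 (75.04%), Rpl3 (56.0%), Rps18 (48.6%), Rplp0 (47.5%) and Rpl35a (45.3%), of which Rps2, Rps18 and Rpl35a were named for this spread after their values were seen. For comparison, the repeat library of gland 133 stood at a median of 1.22 times the level of its other library over the 76 genes (range 0.588 to 1.66), and that of tumor 3956 at 1.18 times (0.759 to 1.68).

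The comparison of 6 Trim24COE tumors with 4 control glands asks which genes move in the tumors that the transgenic mice develop. Of the 76 genes, 1 passed an adjusted p of 0.05 (limma on log2(TPM + 1), Benjamini-Hochberg over 15196 genes) and 17.1% of all genes tested did. That gene was Rplp0, and it was higher. The median log2 fold change of the 76 was -0.01 beside -0.04 over all genes tested, with 38 above and 38 below 0. This even split depended on the glands and the scaling. The median of the 76 was -0.17 without gland 133 (15 above 0) and -0.23 without glands 133 and 392 (13 above 0). With adipocyte markers in the fit it was -0.25 (14 above 0). Over all genes the median was -0.10, -0.18 and -0.13 in these fits. For the 76 it was 0.11 with median-ratio scaling (53 above 0) and 0.11 without gland 517_3 (51 above 0). A change of at least 1 on the log2 scale was seen in 1.32% of the 76 and in 24.5% of all genes. Without regard to the test, 2 genes, Rplp0 and Rpsa, lay above every gland in every Trim24COE tumor, a pattern shown by 7.39% of all genes, and 0 lay below every gland, beside 7.2% of all genes. Without the adipocyte-rich glands 133 and 392, 3 of the 76 passed, Rplp0 higher and Rpl3 and Rpl35a lower, where 2653 of 16351 genes passed. The same 3 passed without gland 133 alone (1972 of 15638 genes), and only Rplp0 without gland 392 alone (1876 of 15669 genes).

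**Figure D2:**
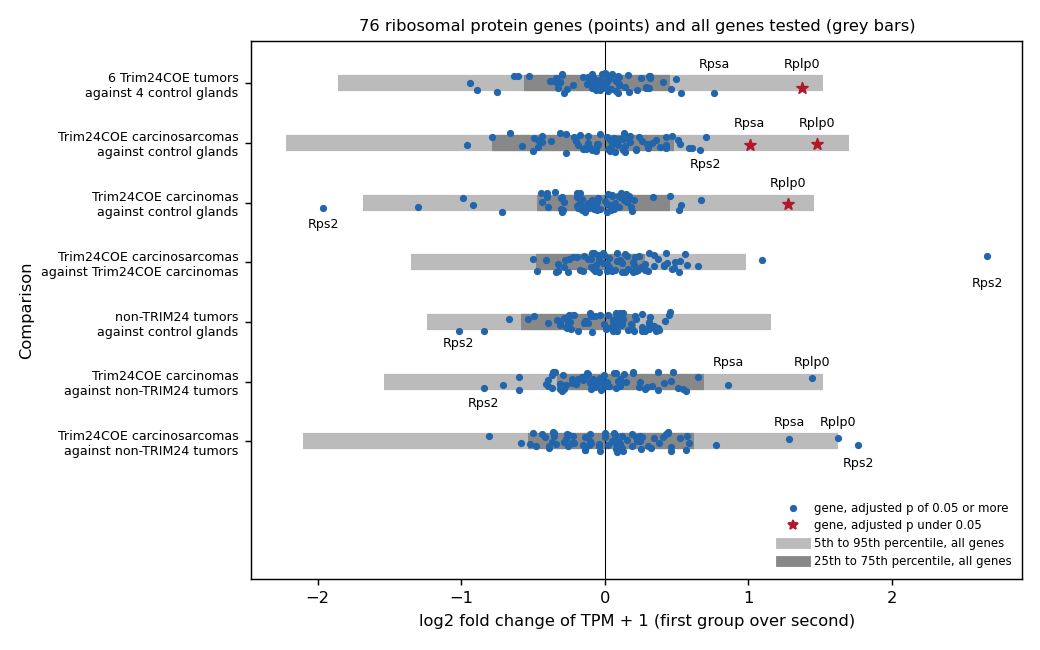
log2 fold change of TPM + 1 (x axis, first group over second) in 7 comparisons (y axis), with a point for each of the 76 ribosomal protein genes (star, adjusted p under 0.05) over bars that mark the 5th to 95th and 25th to 75th percentiles of all genes tested. Most points lie inside the dark bar near 0, and Rplp0, at 1.37 in the top comparison, is the farthest to the right in each of the upper 3.

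Rplp0, the core protein of the 60S stalk that anchors Rplp1 and Rplp2 and recruits elongation factors, was 2.59 times as high in mean TPM in the Trim24COE tumors as in glands. In glands it stood at 1380 TPM (133), 1139 TPM (392), 1357 TPM (417_3) and 1564 TPM (517_3). Carcinosarcomas had 3712 TPM (567), 3604 TPM (64) and 3977 TPM (897), and carcinomas 3229 TPM (273_5), 3691 TPM (3956) and 2924 TPM (89). Every tumor was above every gland, by a wide gap between 1564 and 2924 TPM. The means were 1360 TPM ± 174 (SD, n = 4) and 3523 TPM ± 380 (SD, n = 6), and the log2 fold change was 1.37 (SE 0.20, limma adjusted p = 0.00158). The non-TRIM24 tumors had 1948 TPM (219), 1120 TPM (FVB001) and 1436 TPM (FVB002), a range that overlaps the glands and lies below every Trim24COE tumor. Within batch 2, the repeat library of carcinoma 3956 had 4108 TPM, above all 3 non-TRIM24 tumors, and that of gland 133 had 1556 TPM.

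The share of the summed TPM listed at copies of Rplp0, among them Gm8730, was mostly lower in Trim24COE tumors than in glands, with overlap. The copies held 13.1% to 39.4% of the summed TPM of gene and copies in glands, 10.3% to 16.8% in Trim24COE tumors and 24.2% to 28.9% in non-TRIM24 tumors. This share also depends on the level of Rplp0 itself, so it is not the copies' own level. The sum of gene and copies was 1452 to 2579 TPM in glands and 3311 to 4649 TPM in Trim24COE tumors, still without overlap, and its log2 fold change was 1.08 (SE 0.23, limma adjusted p = 0.0111). The other stalk proteins did not follow Rplp0. Rplp1 was at 6502 TPM ± 1240 in glands and 6975 TPM ± 1773 in Trim24COE tumors (log2 fold change 0.09, SE 0.27, limma adjusted p = 0.852), and Rplp2 at 2230 TPM ± 675 and 2007 TPM ± 267 (-0.12, SE 0.23, limma adjusted p = 0.768). Mice with the highest Rplp0 were not those with the highest Rplp1, since tumor 64 led for Rplp1 at 10341 TPM and tumor 897 for Rplp0.

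Rpsa, a 40S protein also known as the laminin receptor precursor, was 1.70 times as high in mean TPM in the Trim24COE tumors. Glands stood at 1233 TPM (133), 1631 TPM (392), 1745 TPM (417_3) and 2123 TPM (517_3). Carcinosarcomas had 2927 TPM (567), 3819 TPM (64) and 3287 TPM (897), and carcinomas 2321 TPM (273_5), 2641 TPM (3956) and 2158 TPM (89). The groups did not overlap, but tumor 89 and gland 517_3 were nearly level. The log2 fold change was 0.76 (SE 0.25) with a limma adjusted p = 0.0548, short of the threshold. It passed in 6 of 22 alternatives, among them the fit without carcinoma 89 (limma adjusted p = 0.0448), and over all 22 the log2 fold change ran from 0.38 to 0.88 and the limma adjusted p from 0.0252 to 0.388. The non-TRIM24 tumors had 2284 TPM (219), 1538 TPM (FVB001) and 1832 TPM (FVB002), and the repeat libraries gave 1889 TPM for gland 133 and 3873 TPM for carcinoma 3956, 1.53 and 1.47 times the other library of the same mouse. Copies hardly enter for Rpsa, at 1.21% to 1.70% of the sum.

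**Figure D3:**
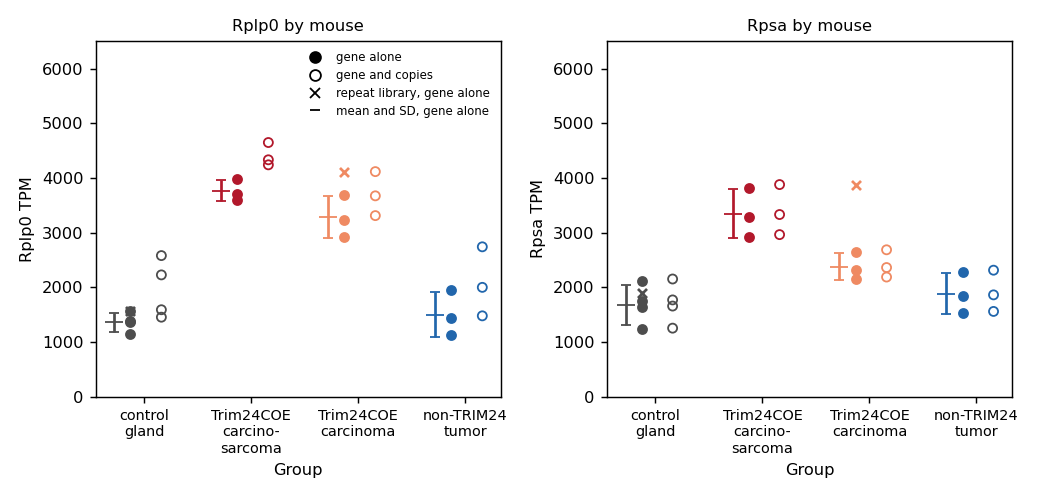
TPM (y axis) of Rplp0 (left) and Rpsa (right) by group (x axis), with filled points for the gene in each mouse, open points for gene and copies, crosses for repeat libraries, and a bar for mean and SD. Trim24COE tumors have 2924 to 3977 TPM of Rplp0 against 1139 to 1564 TPM in glands, and the non-TRIM24 tumors overlap the glands for both genes, with 219 above every gland at 1948 TPM of Rplp0 and 2284 TPM of Rpsa.

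Other ribosomal proteins with a role of their own did not pass the test in this comparison. For the Mdm2-binding proteins the log2 fold change was -0.33 for Rpl5, -0.06 for Rpl11 and -0.02 for Rpl23. Rps6, the S6 kinase substrate, was at -0.32, Rps27a, made as a fusion with ubiquitin, at 0.01, and Rps3, which has a DNA repair activity, at -0.08. Rpl10, which joins the 60S subunit late, was at 0.01, Rpl22, an RNA-binding protein lost in some leukemias, at 0.10, Rpl38, which is needed for the translation of Hox mRNAs in the embryo, at 0.25, and Rpl41 at 0.53. Limma adjusted p ran from 0.212 to 0.992 over these 10 genes, and their standard errors from 0.24 to 0.28. Rps19, the gene most often mutated in Diamond-Blackfan anemia, had 1696 to 2832 TPM in glands and 1314 to 1795 TPM in Trim24COE tumors, and the log2 fold change of -0.53 (SE 0.22) did not pass (limma adjusted p = 0.114). With TPM taken without mitochondrially encoded RNA and the 10 most abundant genes Rps19 passed as lower, where 2712 of 15196 genes passed.

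The 2 subunits did not sit at the same place. The summed TPM of the 46 large-subunit genes over that of the 30 small-subunit genes was 1.27 (133), 1.25 (392), 1.25 (417_3) and 1.24 (517_3) in glands, a narrow range. It was 1.38 (567), 1.34 (64) and 1.45 (897) in carcinosarcomas, and 1.49 (273_5), 1.37 (3956) and 1.39 (89) in carcinomas, all above every gland. It was 1.33 (219), 1.27 (FVB001) and 1.28 (FVB002) in non-TRIM24 tumors. The repeat libraries of batch 2 were lower than the other library of the same mouse, at 1.18 for gland 133 and 1.32 for carcinoma 3956, so that in batch 2 the non-TRIM24 tumors stood above the gland and around the Trim24COE carcinoma. With copies added the ratio was 1.35 to 1.36 in glands, 1.42 to 1.61 in Trim24COE tumors and 1.33 to 1.43 in non-TRIM24 tumors, and without Rplp0 and Rpsa it was 1.36 to 1.37, 1.42 to 1.62 and 1.34 to 1.44. As a sum over chosen genes the ratio was not tested. Gene by gene, 29 of 46 large-subunit genes and 9 of 30 small-subunit genes had a log2 fold change above 0 in the Trim24COE tumors, with medians of 0.03 and -0.09.

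The spread of Rps2, Rps18, Rpl3 and Rpl35a was smaller once their level was summed with that of their near-identical copies. Rps2, a 40S protein near the mRNA entry channel, had 860 to 2214 TPM in glands, and in the Trim24COE tumors 2042 TPM (567), 4142 TPM (64), 1935 TPM (897), 141 TPM (273_5), 285 TPM (3956) and 1583 TPM (89). Mice 273_5, 3956 and FVB001 (244 TPM) were far below the others. In those mice the copies, chiefly the chromosome 18 pseudogene Rps2-ps10, held 92.8%, 92.7% and 89.3% of the sum, beside 1.62% in tumor 64 and 15.3% in gland 392. Summed with its copies, Rps2 ranged only from 1737 to 4210 TPM, and its CV fell from 75.04% to 27.9%.

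The share at copies went with the mouse. Repeat libraries gave Rps2 shares of 49.2% and 92.1% where the other libraries of gland 133 and tumor 3956 had 50.5% and 92.7%. For Rps18, which sits at the head of the 40S subunit, the copies held under 0.72% of the sum in glands 392, 417_3 and 517_3 and in tumor 64, and 33.7% to 81.1% in the other 9 mice, with 42.2% in both libraries of gland 133. For Rpl3, next to the peptidyl transferase center, they held 1.28% to 1.71% in glands 392, 417_3 and 517_3 and 24.7% to 55.9% in the other 10 mice. For Rpl35a, mutated in some Diamond-Blackfan anemia, they held 3.30% to 4.01% in the same 3 glands and 39.1% to 69.1% in the others. Gland 133 thus sided with the tumors for all 4 genes, and tumor 64 with the glands for Rps2 and Rps18 but not for Rpl3 and Rpl35a.

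Adding the copies brought the difference between tumors and glands nearer to 0 for Rpl35a, Rpl3 and Rps18, and turned its sign for Rps2. Rpl35a had a log2 fold change of -0.89 (SE 0.29, limma adjusted p = 0.0580) alone and 0.08 (SE 0.28, limma adjusted p = 0.873) with copies. Alone it passed without gland 133 (limma adjusted p = 0.0221) or tumor 64 (limma adjusted p = 0.0424). Rpl3 went from -0.94 (SE 0.37, limma adjusted p = 0.107) to -0.11 (SE 0.29, limma adjusted p = 0.825), and alone it passed without gland 133 (limma adjusted p = 0.0342). Rps18 went from -0.75 (SE 0.47, limma adjusted p = 0.297) to -0.10 (SE 0.23, limma adjusted p = 0.799). Rps2 turned from -0.63 (SE 0.85, limma adjusted p = 0.646) to 0.60 (SE 0.27, limma adjusted p = 0.150). Over all 76 genes the median CV was 22.6% alone and 21.5% with copies, 71 genes were then under 30%, and the highest CV was that of Rplp0, at 39.5%. The copies also enter the pseudogenes by symbol, of which 79 of 288 were tested, 6 rose and 1 fell in the Trim24COE tumors, where 17.1% of all genes passed. The 7 were Rpl3-ps1, Rpsa-ps2, Rps2-ps6 and 4 copies of Rpl35a that carry identical TPM, and all are uncertain for the same reason.

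**Figure D4:**
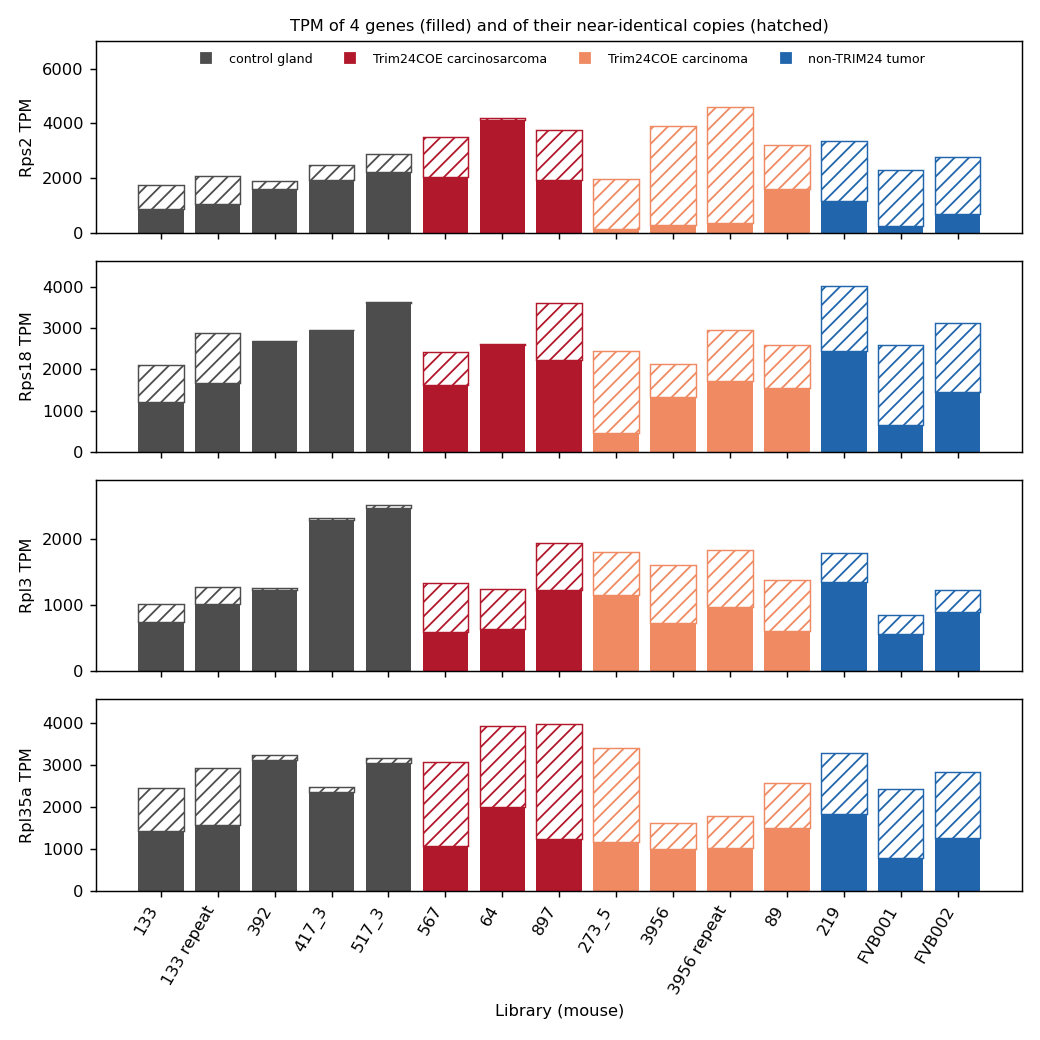
TPM (y axis) of Rps2, Rps18, Rpl3 and Rpl35a (filled) and of their near-identical copies (hatched, stacked) in each library (x axis, by mouse, colored by group). Rps2 itself stands at 141 TPM in 273_5 and 4142 TPM in 64, and the bars with copies are more alike than the filled parts.

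**Figure D5:**
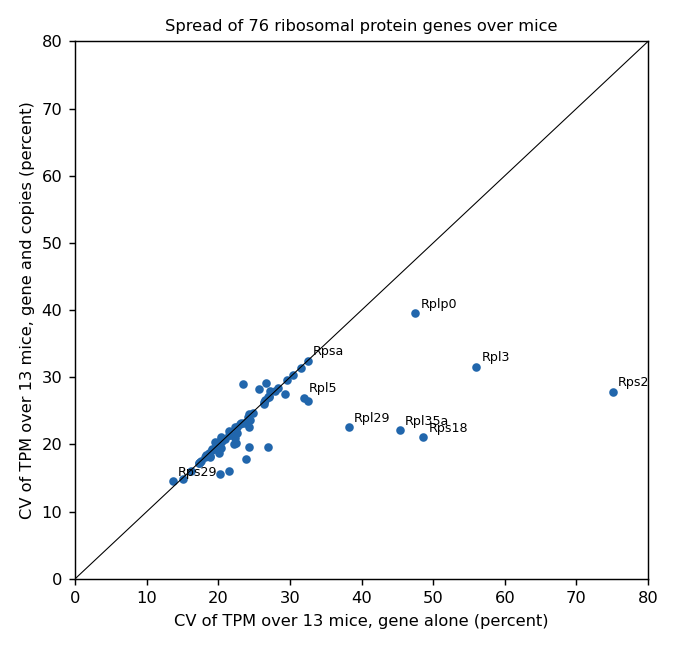
CV over 13 mice of each of the 76 genes alone (x axis, percent) and with its copies added (y axis, percent), with the line of equal values. Most points lie on the line near 22%, and Rps2, Rps18, Rpl3 and Rpl35a fall well below it, while Rplp0 goes from 47.5% to 39.5% and Rpsa stays at 32.5%.

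The tumor classes were then compared with glands on their own, and these comparisons share the 4 glands with the one of all 6 tumors. In carcinosarcomas 2 of the 76 genes passed, Rplp0 and Rpsa, both higher, where 23.0% of 15287 genes passed. Rplp0 was at 3764 TPM ± 192 (SD, n = 3) with a log2 fold change of 1.48 (SE 0.26, limma adjusted p = 0.00703), and Rpsa at 3344 TPM ± 449 (SD, n = 3) with 1.01 (SE 0.29, limma adjusted p = 0.0422). The Rpsa call was lost when any single mouse was left out (limma adjusted p = 0.0539 to 0.165) and with the mean log2(TPM + 1) of the adipocyte markers in the fit (limma adjusted p = 0.172). In carcinomas 1 of the 76 passed, Rplp0, where 3.5% of 15479 genes did. Rplp0 was at 3281 TPM ± 386 (SD, n = 3), with a log2 fold change of 1.27 (SE 0.27, limma adjusted p = 0.0450). This call was lost without any 1 of glands 392, 417_3 and 517_3 or of the 3 carcinomas (limma adjusted p = 0.0956 to 0.136), and also with the copies added (log2 fold change 0.95, limma adjusted p = 0.134). Rpsa in carcinomas, at 2373 TPM ± 246 (SD, n = 3), had a log2 fold change of 0.52 (SE 0.29, limma adjusted p = 0.360). Over the 76 genes the median log2 fold change was 0.04 in carcinosarcomas and -0.06 in carcinomas. With adipocyte markers in the fit these medians were -0.34 and -0.24. Over all alternatives the median ran from -0.34 to 0.27 in carcinosarcomas and from -0.29 to 0.06 in carcinomas.

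Between carcinosarcomas and carcinomas, 0 of the 76 genes passed the limma test, where 0.698% of 14193 genes did, and 1 gene had an unadjusted p under 0.05. That gene was Rps2, 2.66 higher in carcinosarcomas on the log2 scale (SE 0.85, limma adjusted p = 0.238), and with its copies the value was 0.39 (SE 0.32, limma adjusted p = 0.596). Rplp0 differed by 0.20 (SE 0.25, limma adjusted p = 0.731) and Rpsa by 0.49 (SE 0.25, limma adjusted p = 0.402). The median over the 76 genes was 0.09, beside -0.10 over all genes.

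The non-TRIM24 tumors were compared in a fit of all 15 libraries with a batch term. Repeat libraries enter that fit as samples of their own, and the batch term is set by mice 133 and 3956 alone, each sequenced in both batches. Against glands, 0 of the 76 genes passed the limma test, where 0.107% of 16775 genes passed. An unadjusted limma p under 0.05 was seen in 0 of the 76 and in 10.7% of all genes. Rplp0 was at -0.14 (SE 0.29, limma adjusted p = 0.887) and Rpsa at -0.22 (SE 0.32, limma adjusted p = 0.817), and the median over the 76 was 0.06. The sign of both genes here turned with the scaling and the batch term, and neither value stood outside its error.

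Between Trim24COE and non-TRIM24 tumors no gene of the 76 passed in the same fit either, but calls in both tumor classes depended on how repeat libraries and batch were handled. Carcinomas had 0 of 76, where 0.0179% of genes passed limma, and carcinosarcomas had 0 of 76, where 0.0775% passed. An unadjusted limma p under 0.05 was seen in 17.7% of all genes for carcinomas and 16.4% for carcinosarcomas. Of the 76 genes, 2 (2.63%) had it in each class. These 2 were Rplp0 and Rpsa in both cases. Rplp0 was higher by 1.44 in carcinomas (SE 0.29, limma adjusted p = 0.110) and by 1.63 in carcinosarcomas (SE 0.35, limma adjusted p = 0.0720). Rplp0 passed in carcinomas without tumor 273_5 (limma adjusted p = 0.0442) or non-TRIM24 tumor 219 (limma adjusted p = 0.0317), and in carcinosarcomas without 219 (limma adjusted p = 0.0390). In these fits 230 of 17818, 102 of 17808 and 104 of 17808 genes passed. Rpsa was higher by 0.86 (SE 0.32, limma adjusted p = 0.213) and by 1.28 (SE 0.37, limma adjusted p = 0.136). With the batch term kept and the libraries of a mouse treated as correlated, 799 rather than 13 of 16775 genes passed in carcinosarcomas, Rplp0 (1.53, limma adjusted p = 0.0117) and Rpsa (1.41, limma adjusted p = 0.0171) among them, while in carcinomas Rplp0 did not pass (log2 fold change 1.33). With quantile normalization Rplp0 passed in carcinosarcomas (1.76, limma adjusted p = 0.0397), where 92 of 16775 genes passed, and not in carcinomas (1.55, limma adjusted p = 0.0739). With no batch term Rplp0 passed in both classes (1.36, limma adjusted p = 0.00497 in carcinosarcomas and 1.24, limma adjusted p = 0.0131 in carcinomas) and Rps19 passed as lower in carcinosarcomas, but batch and group are then not told apart. Without that term 2644 rather than 13 of 16775 genes passed in carcinosarcomas. In carcinomas the share of all genes that passed also rose, far above the 0.0179% of the fit with that term.

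Some ribosomal proteins have a second gene outside the 76, and these second genes were mostly minor. Over mice the median share of the second gene in the pair was 34.7% for Rpl36al with Rpl36a (28.8% to 46.5%), 19.1% for Rpl22l1 with Rpl22 (10.9% to 28.3%) and 13.4% for Rps27l, a p53 target, with Rps27 (5.56% to 25.3%). It was 2.79% for Rpl7l1, 0.202% for Rpl39l and 0.0323% for Rpl3l, the striated muscle form, while Rpl10l, a testis form, did not reach 0.16 TPM in any mouse but gland 417_3. Rps27l was at 316 to 406 TPM in glands and 422 to 1279 TPM in Trim24COE tumors, again without overlap, and the difference of 0.84 on the log2 scale (SE 0.29) did not pass (limma adjusted p = 0.0654). Its partner Rps27 was at -0.61 (SE 0.27, limma adjusted p = 0.146). Of 8 second genes tested in this comparison, 0 passed limma.

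The wider machinery of ribosome production was followed by lists, from which genes are named because they passed, with 17.1% of all genes passing in the 6 tumors against 4 glands. Of 78 mitochondrial ribosomal protein genes 3 rose and 0 fell, with a median log2 fold change of 0.28. The 3 were Mrpl21 (0.89, SE 0.20, limma adjusted p = 0.0118), Mrpl43 (0.85, SE 0.23, limma adjusted p = 0.0289) and Mrps22 (0.75, SE 0.21, limma adjusted p = 0.0305). Of 30 ribosome assembly and nucleolar genes 2 rose and 0 fell, with a median of 0.34. Nhp2, a core protein of H/ACA snoRNPs, stood at 56.8 to 118 TPM in glands and 131 to 365 TPM in Trim24COE tumors (1.26, SE 0.31, limma adjusted p = 0.0192). Eif6, which keeps 60S subunits from joining 40S subunits too early, stood at 64.9 to 134 TPM in glands and 135 to 248 TPM in tumors (0.97, SE 0.27, limma adjusted p = 0.0317). The groups did not overlap for either gene, and the adipocyte-rich glands 133 and 392 were the lowest for both genes.

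The remaining lists had no gene past the threshold in that comparison. This held for the ribosomal proteins Rps3a1, Fau and Rack1, which the symbol rule leaves out (log2 fold changes of 0.70, 0.26 and 0.19), for 16 other genes with 5′ TOP mRNAs such as Eef1a1 and Tpt1 (median 0.10, -0.31 to 0.70), for 14 genes of RNA polymerase I and its factors (median 0.04) and for 12 regulators of 5′ TOP mRNAs such as Mtor, Larp1 and Myc (median -0.10). In the carcinosarcomas alone, where 23.0% of genes passed, the RNA polymerase I subunits Polr1d (1.06, SE 0.25, limma adjusted p = 0.0208) and Polr1e (1.03, SE 0.28, limma adjusted p = 0.0340) rose, and Eif4ebp2, an inhibitor of cap-dependent translation, fell by 1.24 on the log2 scale (SE 0.33, limma adjusted p = 0.0323).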

How the data were processed

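RNA-seq libraries were made from mouse mammary glands and tumors (15 libraries, 13 mice). The deposited values are TPM per gene, which the authors estimated with RSEM 1.3.1 and STAR 2.7.2b after trimming with Trimmomatic 0.39, against GRCm38 with GENCODE M14. RSEM divides reads that fit several genes among them, so near-identical copies share a level. The labels give a mirVana kit and stranded total RNA libraries and the paper's methods a Zymo kit and another TruSeq kit, so selection and strand are uncertain, and without strand a gene and its antisense partner cannot be told apart. The labels also name mm10, FastQC, TopHat, Cufflinks, DESeq and edgeR without roles. Each library sums to 1000000 TPM, so depth is unknown and no count test or counting interval was used. No column belonged to an unlisted sample (0).

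Groups were taken from the labels. log2(TPM + 1) was fitted with limma 3.58.1 (lmFit, eBayes with trend, R 4.3.3), two-sided, with Benjamini-Hochberg adjustment over the genes tested, which reached 1 TPM in a number of libraries no smaller than the number of mice of the smaller group. Comparisons within batch 1 used the first libraries of the 2 groups, and those with non-TRIM24 tumors all 15 libraries with a batch term, where the repeat libraries count as further samples of their group. P-values within batch 1 measure the spread between these mice. In the comparisons with non-TRIM24 tumors the spread between repeat libraries of a mouse enters as if they were further mice. An exact permutation p planned for single genes is not given, since for groups that do not overlap it can take only its lowest value. The script was tested on simulated data. Copies were found by shared 31-base words between GENCODE M21 transcripts (GRCm38), and a gene's TPM was then also summed with its copies. Promoter windows came from RefSeq (GRCm38.p6). Alternatives changed the pseudocount, filter, scaling, samples, batch term and covariate, and left out each mouse in turn. Adding the copies, taking TPM as a share of the 76 genes, and leaving out the 2 adipocyte-rich glands or non-TRIM24 tumors were chosen after seeing the data.

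The genes and lists were chosen with earlier results of these data known. Genes named are those past the threshold within batch 1, the 3 highest and 3 lowest, members with a role outside the ribosome or on the stalk, and pairs with a close paralog. Python 3.11.15, pandas 2.3.3, scipy 1.17.1, Biopython 1.88 and matplotlib 3.10.9 were used.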

Additional observations from a re-analysis of the deposited data

Results flagged for a closer look

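Over 70 groups of values tested for a sample far from the others, 6 values stood out, where chance flags about 1 in 20 groups. Rplp1 was at 10341 TPM in Trim24COE tumor 64, beside 5746 to 7465 TPM in the other 5 Trim24COE tumors. Rpl23 was at 2321 TPM in tumor 897, beside 1269 to 1618 TPM. In tumor 273_5, Rps27l was at 1279 TPM, beside 422 to 693 TPM in the others, and Rpl22l1 at 602 TPM, beside 275 to 382 TPM. The testis form Rpl10l was at 0.16 TPM in gland 417_3 and at 0.01 TPM in tumor 897, and was listed at 0 in the other mice of these groups. With all others at 0 any value above 0 is flagged, so the Rpl10l flags cannot be set against the chance rate.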

How the results depend on the processing

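Rplp0 passed in all 22 alternatives tried for the 6 Trim24COE tumors against 4 glands (log2 fold change 1.08 to 1.49, limma adjusted p = 0.000850 to 0.0163) and in all 19 tried for the carcinosarcomas, but in 8 of 19 for the carcinomas (limma adjusted p = 0.0133 to 0.206). Rpsa passed in 6 of 22 for the 6 tumors (limma adjusted p = 0.0252 to 0.388) and in 8 of 19 for the carcinosarcomas (limma adjusted p = 0.0203 to 0.176). The number of the 76 genes past the threshold in the 6 tumors against glands was 1 as reported. It was 2 with a mean TPM of at least 5 (1788 of 11394 genes tested passed). It was also 2 with all groups of batch 1 fitted (3104 of 15196) or with adipocyte markers in the fit (1240 of 15196). It was 3 with quantile normalization (2783 of 15196) or as a share of the 76 genes (2115 of 15196). Without glands 133 and 392 it was 3 (2653 of 16351). It was 4 with TPM without mitochondrially encoded and the 10 most abundant genes (2712 of 15196). There Rplp0 and Rpsa were higher and Rpl35a and Rps19 lower. Without single mice it was 1 to 3, where 1779 of 15783 to 2911 of 14843 genes passed. It was 3 without gland 133 and 2 without tumor 64 or 89. In carcinosarcomas the number of the 76 genes was 1 without the filter on low TPM (1623 of 39123 genes tested passed). It was also 1 with TPM scaled without these genes and their pseudogenes (3484 of 15287). Without any single mouse it was 1 (1345 of 16525 to 3093 of 14784). It was 3, with Rps19 lower, with quantile normalization (3327 of 15287). The same held with TPM without mitochondrially encoded and the 10 most abundant genes (3929 of 15287). In carcinomas the number was 0 without the filter on low TPM (46 of 38798) and with median-ratio scaling (713 of 15479). It was also 0 scaled without these genes (502 of 15479), with adipocyte markers (794 of 15479) or with copies (551 of 15314). Without glands 133 and 392 it was 2 (1224 of 15756). Without single mice it was 0 to 1 (72 of 15143 to 526 of 15003), and the 1 without mouse 89 was Rps2. Against non-TRIM24 tumors it was, for carcinomas, 1 with no batch term, 2 with first libraries only and 0 to 1 without single mice, and for carcinosarcomas 1 with quantile normalization, 2 with a correlation by mouse (Rplp0 and Rpsa), with no batch term or with first libraries only (Rplp0 and Rps19 in both), and 0 to 1 without single mice. With no batch term 2644 of 16775 genes passed in carcinosarcomas. With first libraries only 2425 of 16544 genes passed in carcinosarcomas and 1500 of 16544 in carcinomas. The median log2 fold change of the 76 moved to -0.34 in carcinosarcomas with adipocyte markers in the fit, to -0.24 for non-TRIM24 tumors against glands with a correlation by mouse (-0.29 to 0.16 without single mice), to -0.35 (median-ratio scaling) and 0.22 (correlation by mouse) for carcinomas against non-TRIM24 tumors, and to 0.34 (correlation by mouse) for carcinosarcomas against them. Median-ratio scaling moved the median of all genes from -0.12 to 0.07 in carcinosarcomas against glands, from -0.21 to -0.03 in non-TRIM24 tumors against glands and from 0.21 to -0.01 in carcinomas against non-TRIM24 tumors. With copies the sign turned for Rpl35a (0.0813) and Rps2 (0.60) in the 6 tumors. In non-TRIM24 tumors against glands the sign turned for Rplp0 with median-ratio scaling (0.10), no batch term (0.0734), first libraries only (0.11), without FVB001 and FVB002 (0.27) and without FVB001 (0.0542), and for Rpsa with the same first 4 (0.0152, 0.13, 0.17 and 0.0731). The causes were not tested. Of 660 values under alternatives, 557 were classed as the same as reported. For a single gene this means the same sign and the same side of the threshold. For a count of genes it means within a fixed factor of the reported count. For a median it means a shift under 0.258, the SD between replicates within groups, whatever the sign. No paired analysis was possible because the mouse numbers differ between groups. Depth is unknown, so no limit of detection can be given.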
